A study of Mus musculus with 8 samples.

Results

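To describe lysine deacetylases in the adult oligodendrocyte lineage, 10 genes were followed in aOPC and aOL, namely Hdac1, Hdac2, Hdac3, Hdac4, Hdac5, Hdac6, Hdac7, Hdac8, Hdac11 and Sirt2. They were chosen by name, and all 10 were present among the 11315 genes listed in the RNA-seq values. In the hydroxymethylation data they held 471 of 1497075 listed sites, taken from the promoter, exon and intron columns of the deposited tables. Adult oligodendrocyte progenitor cells (aOPC) were sorted from brains of Pdgfra-H2BEGFP mice, in which the Pdgfra locus drives EGFP. Adult oligodendrocytes (aOL) came from Plp-EGFP mice, in which Plp regulatory sequence drives it. All mice were C57BL/6, of either sex and at postnatal day 60, with no other treatment or deletion stated. Each population had 2 RNA-seq and 2 RRHP libraries (8 in all, replicates 2 and 3 of each kind), with RNA and DNA taken from the same pellets. For the aOL RRHP samples the titles set the group, because their tissue entry gives the Pdgfra reporter. The stage of the aOL is not settled by the labels, since the protocol has myelinating cells and the RNA titles have pre-myelinating ones. Population and reporter line cannot be told apart. The methods describe the RRHP replicates as biological, the sources used here do not give how many animals entered each, and p-values measure only the spread between these samples.

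Histone deacetylases remove acetyl groups from lysines of histones and other proteins, and on chromatin they mostly act within corepressor complexes. Class I enzymes are largely nuclear. Class IIa enzymes shuttle between nucleus and cytoplasm and bind MEF2 factors. Hdac6 and Sirt2 deacetylate tubulin in the cytoplasm. In the oligodendrocyte lineage, Hdac1 and Hdac2 activity is needed for progenitors to differentiate, and Sirt2, which uses NAD, is an abundant protein of the myelin sheath. RRHP (Reduced Representation Hydroxymethylation Profiling) reads 5-hydroxymethylcytosine (5hmC) at CCGG motifs, because a glucosylated 5hmC protects the motif from the enzyme MspI. The readout was a read count per CpG and strand.

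Before the deacetylases, the identity of the libraries was checked on marker genes. The 8 oligodendrocyte markers had a mean log2 RNA value of 18.41 and 17.98 in the aOPC libraries and of 17.96 and 18.12 in the aOL libraries. By this mean, the aOPC libraries held these transcripts at the level of the aOL libraries. Without overlap, Mog, Cldn11 and Opalin were lower and Cnp higher in aOL (61.8% of all genes tested did not overlap). The 8 OPC markers had a mean of 10.74 and 8.40 in aOPC against 8.11 and 8.06 in aOL, so mainly aOPC replicate 2 was higher. Among them, Pdgfra had values of 7.54 and 5.47 in aOPC against 4.98 and 1.63 in aOL. Of the 8 OPC markers, 3 were lower and 1 higher in aOL without overlap, again against 61.8% of all genes tested. None of them passed the test. Markers of other cell types were lower by median in aOL, with a median difference of -0.68 over 6 astrocyte, -0.57 over 6 microglia and -0.46 over 3 neuron markers tested, of which 2, 2 and 2 were lower and 1, 0 and 0 higher without overlap. Only 2 of 7 endothelial and mural markers were listed. The endothelial gene Cldn5 was at 0.33 and 1.80 in aOPC against 5.92 and 7.13 in aOL. The Y-linked gene Ddx3y was at 12.43 in aOPC replicate 2 and between 0.32 and 1.63 in the other 3 RNA libraries. RRHP libraries held 7113237 and 17121440 counts in aOPC against 15923775 and 27057859 in aOL, and aOPC replicate 2 stood apart with 5.74% of its counts in CpG islands against 2.38% to 3.32% in the others. A floor of 3 counts corresponded to 0.422, 0.175, 0.188 and 0.111 CPM (counts scaled to a library total of 1000000) in that order. Floors and intervals cover counting error only. The part of these library differences in the results that follow was not tested. In sorted bulk samples, fewer cells of a type and less RNA per cell cannot be told apart.

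At single CpGs, 4 sites of the deacetylase genes were called, meaning an adjusted p under 0.05 in edgeR's quasi-likelihood test over all sites that reached 10 reads in 2 or more libraries. All 4 lay in introns and had more reads in aOL. All 4 also reached the read minimum only through the aOL libraries, so passing the minimum fixed their direction, and they are described by their counts, with no p-value. Of these, 3 belonged to Hdac4, a class IIa repressor partner of MEF2, and 1 to Hdac8, an X-linked class I enzyme that acts outside the large complexes. Their sequences are shown because the single-site differences rest on them. They are written 5′ to 3′ along the coding strand of the gene, from the GRCm38 reference, with the CCGG read by RRHP in capitals. The windows are chr1:91937048-91937111, chr1:92088762-92088825 and chr1:92126392-92126455 for Hdac4 and chrX:102317615-102317678 for Hdac8, and both genes lie on the minus strand.
Hdac4 site at 91937080: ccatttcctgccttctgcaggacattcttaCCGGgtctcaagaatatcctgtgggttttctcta
Hdac4 site at 92088793: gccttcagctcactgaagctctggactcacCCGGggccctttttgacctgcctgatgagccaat
Hdac4 site at 92126424: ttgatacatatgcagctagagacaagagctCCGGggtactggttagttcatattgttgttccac
Hdac8 site at 102317646: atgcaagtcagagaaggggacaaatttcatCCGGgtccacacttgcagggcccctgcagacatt

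The Hdac4 site at 91937080, 258619 bases after the annotated gene start, had 0 reads in both aOPC libraries and 33 and 88 reads in aOL replicates 2 and 3. That is a mean of 2.66 ± 0.83 CPM (SD, n = 2) in aOL, at least 8.92-fold higher than the floor of 3 counts per library in aOPC. No read of any library was listed on the other strand of this CpG.

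The Hdac4 site at 92126424, 69275 bases after the start, likewise had 0 reads in aOPC against 14 and 34 in aOL. Its aOL mean was 1.07 ± 0.27 CPM (SD, n = 2), at least 3.58-fold above the same floor. Here, too, the other strand was not listed.

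The Hdac4 site at 92088793 had 0 and 1 reads in aOPC against 23 and 26 in aOL. Its surroundings, chosen here because of the call, were also read more in aOL: within 500 bases on either side, Hdac4 had 5 listed sites over 775 bases, which together held 2 and 10 reads in aOPC against 64 and 67 in aOL (0.28 and 0.58 CPM against 4.02 and 2.48 CPM). The called site itself gave 49 of these aOL reads. Of the other sites there, the opposite strand of the called CpG had 1 and 6 reads in aOPC against 22 and 18 in aOL, and the minus-strand site at 92089183 had 1 and 1 against 13 and 15, and both of these also reached the read minimum only through aOL.

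The Hdac8 site at 102317646, 187713 bases after its gene start, had 1 and 4 reads in aOPC against 24 and 29 in aOL. The mean was 0.19 ± 0.07 CPM in aOPC and 1.29 ± 0.31 CPM in aOL (SD, n = 2 each). Its other strand held 1 read in total. This site was no longer called when any 1 of the 4 libraries was left out.

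**Figure D1:**
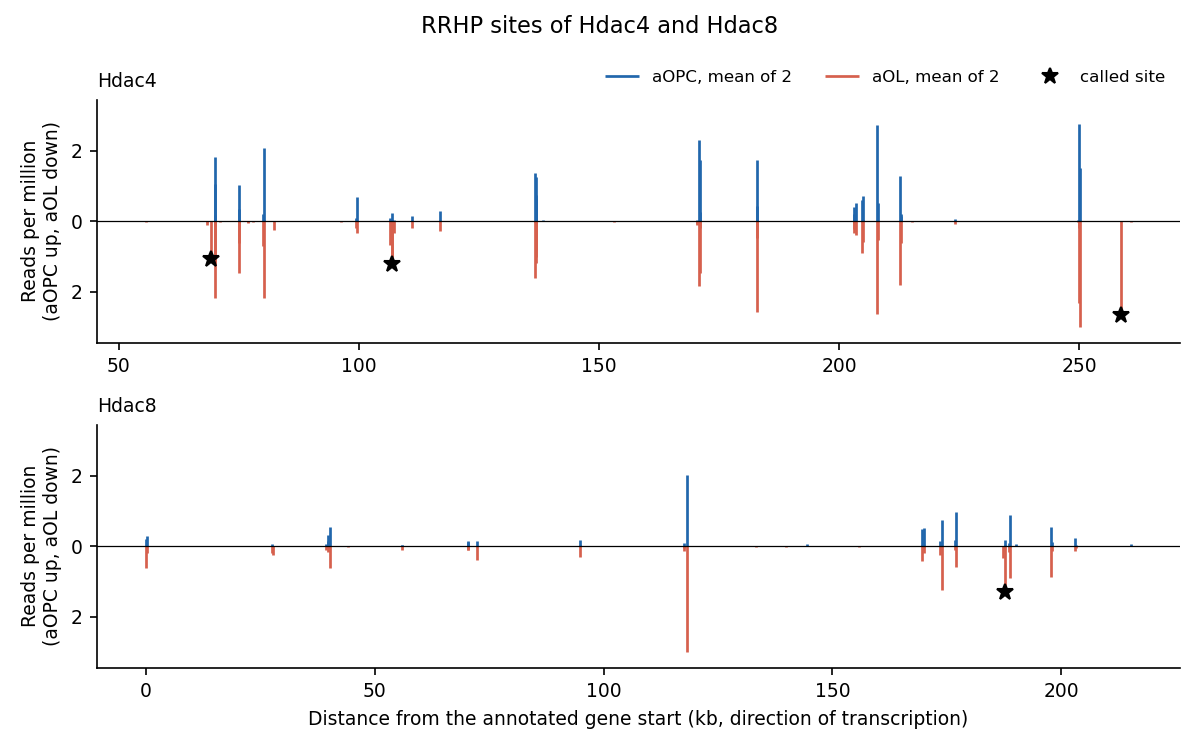
RRHP CPM at each listed site of Hdac4 and Hdac8 against the distance from the annotated gene start in kb, with the mean of 2 aOPC libraries upwards and the mean of 2 aOL libraries downwards. Stars mark the 4 called sites, of which the one farthest from the Hdac4 start had 0 reads in both aOPC libraries.

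Across the 10 genes, 145 of the 471 sites had enough reads to be tested. Of these, 4 were called as higher in aOL, against 1.21% of all 443062 sites tested, and none was called as lower. At an unadjusted p under 0.05, 14 member sites were higher in aOL (background 5.45%) and 6 were lower (background 4.31%). The median log2 fold change over the 145 tested sites was 0.07, and 80 of them lay above 0. Hdac4 held 7 of the 14 higher sites, out of 24 tested, and no lower one. These counts are a description and support nothing about the genes, since a site near 0 in aOPC entered the test only through its aOL reads. Of all called sites that were higher in aOL in the whole series 76.6% had at most 3 reads in both aOPC libraries. With at least 10 reads required in every library, no member site was called. Without aOPC replicate 3, none of the 4 sites was called.

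Sites that were lower in aOL at the unadjusted level were fewer, and 3 of these 6 were in Hdac5. The smallest p belonged to an intronic site of Hdac7, a class IIa enzyme, at chr15:97813441 (log2 fold change -1.05). It had 68 and 141 reads in aOPC against 72 and 126 in aOL, which is 9.56 and 8.23 CPM against 4.52 and 4.66 CPM, so that the populations did not overlap. The pooled aOL to aOPC ratio was 0.534 (exact 95% counting interval 0.438 to 0.652), and the site missed the threshold (edgeR adjusted p = 0.0780). Another intronic Hdac7 site, at 97813560, had 15 and 32 reads against 18 and 22 (edgeR adjusted p = 0.337). In the other direction, the Hdac7 intron site at 97836266 had 0 and 1 reads against 16 and 12, and it reached the read minimum only through aOL.

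To ask whether whole genes gained or lost the mark, counts were summed over all exon and intron sites of each gene. None of the 9 deacetylase genes with enough reads was called by edgeR's quasi-likelihood test or by DESeq2, and 1 had an unadjusted p under 0.05. In edgeR, 157 gene bodies were called in all, 0.849% of the 18488 tested. In 5 of 9 the aOL libraries lay above both aOPC libraries (Hdac2, Hdac4, Hdac6, Hdac8 and Sirt2), and in none below, while groups did not overlap in 38.8% of all gene bodies. The median log2 fold change was 0.18 over these 9 genes and -0.00 over all gene bodies tested. Adjusted p-values ran from 0.675 to 0.994.

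Among class I genes, Hdac1 carried the densest signal. Hdac1 and Hdac2 are the paired catalytic subunits of the Sin3, NuRD and CoREST complexes, and Hdac3 is the catalytic subunit of the NCoR complex. Hdac1 had gene-body counts of 393 and 1002 in aOPC against 976 and 1461 in aOL, or 55.2 and 58.5 CPM against 61.3 and 54.0 CPM. The populations overlapped, with a log2 fold change of 0.00 ± 0.13 (SE). Hdac2 had 16.2 and 20.2 CPM in aOPC against 21.7 and 21.1 CPM in aOL, which did not overlap but differed by a log2 fold change of only 0.20 ± 0.16 (SE; edgeR adjusted p = 0.784). Hdac3 was close to the floor, with 10, 12, 11 and 38 reads in aOPC replicates 2 and 3 and aOL replicates 2 and 3, and no Hdac3 site reached the read minimum. Hdac8 had 8.58 and 10.9 CPM in aOPC against 12.9 and 12.4 CPM in aOL, a log2 fold change of 0.34 ± 0.20 (SE; edgeR adjusted p = 0.744). The X chromosome as a whole took 2.84% and 2.45% of counts in aOPC and 2.70% and 3.13% in aOL.

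Within class IIa, Hdac4 gave the smallest gene-body p of all members. It held 24.5 and 37.1 CPM in aOPC against 45.2 and 39.6 CPM in aOL, from 174, 636, 719 and 1071 reads. The sum leaves out 49 sites of the Hdac4 span that the deposited columns give to no gene, which had 41.9 and 31.7 against 27.9 and 33.0 CPM. Over all listed sites of the span, Hdac4 had 66.4 and 68.8 CPM in aOPC against 73.1 and 72.6 CPM in aOL, so the ratio of the means was 1.08, against 1.38 over the sites named for the gene, and this span ratio was not tested. Both aOL libraries were higher, but aOPC replicate 2 was far below aOPC replicate 3. The log2 fold change was 0.41 ± 0.18 (SE), with an unadjusted p of 0.0458 against a background of 7.30% under 0.05, and an edgeR adjusted p of 0.675. With the called single sites of every gene left out (3 in Hdac4) it was 0.24 ± 0.19 (SE; edgeR adjusted p = 0.855). This setting was chosen after seeing the data, and its 3 Hdac4 sites had more reads in aOL, so the value had to fall. With sites of at least 3 reads in every library the log2 fold change was 0.08 (edgeR adjusted p = 0.916). Leaving out aOPC replicate 3 raised it to 0.80 and made it pass (edgeR adjusted p = 6.33e-06), a setting in which 22.6% of all gene bodies were called and in which the 1 aOPC library left is assumed to vary like the aOL libraries. Leaving out aOPC replicate 2 reduced it to 0.16. Hdac5 had 84.6 and 70.1 CPM in aOPC against 74.7 and 70.2 CPM in aOL, and Hdac7 had 89.6 and 105.5 against 105.3 and 97.1 CPM, so both overlapped (log2 fold changes of -0.10 ± 0.13 and 0.04 ± 0.13, SE).

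The remaining classes gave gene-body differences that did not pass either. Hdac6, the class IIb tubulin deacetylase, had 6.75 and 9.87 CPM in aOPC against 10.05 and 10.4 CPM in aOL (log2 fold change 0.25 ± 0.23 SE, edgeR adjusted p = 0.802). Sirt2 had 19.8 and 18.5 CPM in aOPC against 23.05 and 20.7 CPM in aOL (0.18 ± 0.15 SE, edgeR adjusted p = 0.789). Hdac11, the only class IV enzyme, was under the coverage filter with 0 and 3 reads in aOPC against 9 and 16 in aOL. Of these, 71.4% came from 1 site in a non-coding exon, at chr6:91159666, with 0 and 0 reads in aOPC against 8 and 12 in aOL, which was below the minimum for a test.

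Genes differ in how many CCGG motifs they hold, so levels between genes were compared as CPM per CCGG over the annotated span, counting every listed site within it, also those that the deposited columns give to no gene or to a neighbour. The 10 genes covered nearly the whole range of 17732 protein-coding genes with at least 5 motifs. Hdac1 had 1.60 CPM per CCGG over the 4 libraries, above 96.4% of genes, and Hdac5 had 1.14, above 87.6%. Hdac7 (0.90) and Sirt2 (0.68) were above the median of 0.55. Hdac2 (0.52), Hdac6 (0.51) and Hdac4 (0.50) lay just below it. At the low end, Hdac8 had 0.14, Hdac3 0.07 and Hdac11 0.04 CPM per CCGG, the last above only 1.71% of genes. Libraries spread much less than genes: Hdac1 ranged from 1.51 to 1.70 and Hdac11 from 0.01 to 0.07.

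**Figure D2:**
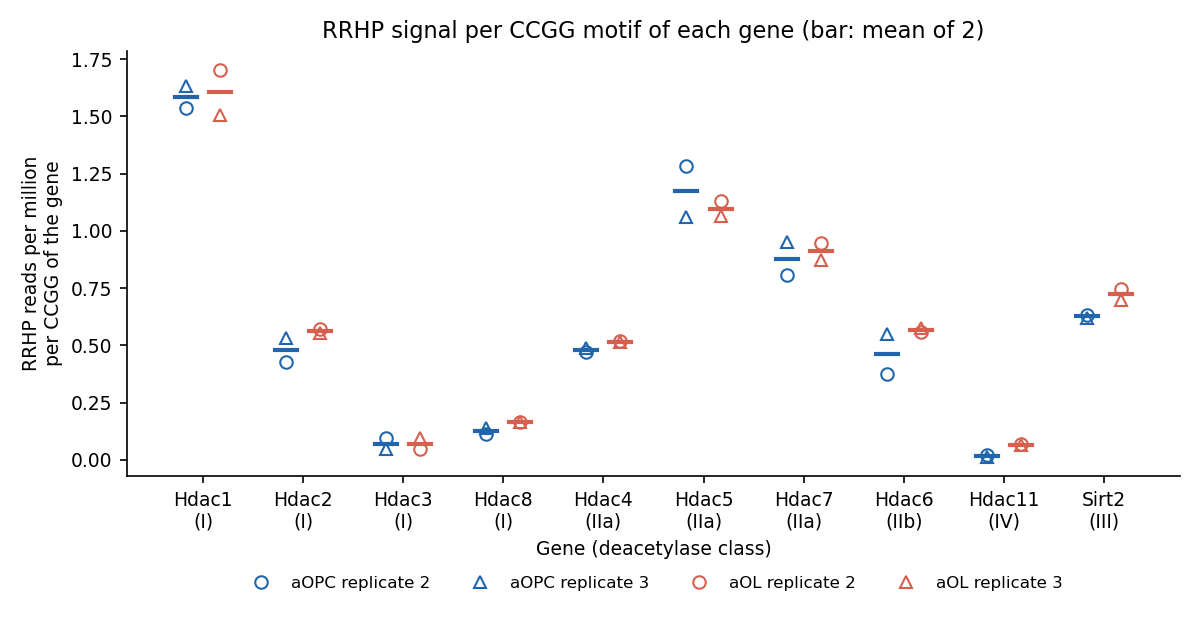
RRHP CPM per CCGG motif of each deacetylase gene (vertical axis) by gene and class (horizontal axis), with circles for replicate 2, triangles for replicate 3, blue for aOPC, red for aOL and a bar for the mean of 2. Hdac1, Hdac5 and Hdac7 carried the most signal and Hdac3, Hdac8 and Hdac11 the least. The points of the populations do not overlap for Hdac2, Hdac4, Hdac6, Hdac8, Hdac11 and Sirt2. Of these, Hdac11 is at or under the floor of 3 reads in aOPC. The share of all genes without overlap was not computed for this measure, so the count says nothing particular about these genes.

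The share of a gene's reads at its most-read site ran from 7.12% in Hdac4 to 71.4% in Hdac11. The most-read gene-body sites of 5 members are shown because these 5 had the most reads at such a site, between 8.73% and 18.8% of their gene's reads. They are written along the coding strand from GRCm38 with the CCGG in capitals, and lie at chr4:129522551-129522614 (Hdac1, minus strand, non-coding exon), chr10:36999088-36999151 (Hdac2, plus strand, intron), chr11:102200051-102200114 (Hdac5, minus strand, coding exon), chr15:97822303-97822366 (Hdac7, minus strand, intron) and chr7:28786708-28786771 (Sirt2, plus strand, intron).
Hdac1: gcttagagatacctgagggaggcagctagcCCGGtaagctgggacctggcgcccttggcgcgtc
Hdac2: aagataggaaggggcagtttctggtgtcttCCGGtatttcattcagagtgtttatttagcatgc
Hdac5: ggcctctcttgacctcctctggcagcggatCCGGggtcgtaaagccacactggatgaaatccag
Hdac7: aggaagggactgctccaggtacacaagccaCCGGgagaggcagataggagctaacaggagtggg
Sirt2: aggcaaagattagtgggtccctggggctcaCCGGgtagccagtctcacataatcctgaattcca

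None of these sites was called. The Hdac7 site had 71 and 193 reads in aOPC against 219 and 256 in aOL, or 9.98 and 11.3 CPM against 13.8 and 9.46 CPM. The Hdac1 site had 62 and 161 reads in aOPC against 171 and 229 in aOL (8.72 and 9.40 against 10.7 and 8.46 CPM), and the Hdac5 site had 7.31 and 6.89 CPM against 6.97 and 5.40. Sirt2 had 4.36 and 3.21 CPM at its site in aOPC against 3.58 and 4.32 in aOL. The Hdac2 site had 2.11 and 2.63 against 2.70 and 3.73 CPM. All overlapped but Hdac2. The most-read sites of Hdac4 and Hdac8 were intronic, at 91987723 (2.11 and 3.39 against 2.83 and 2.48 CPM) and at 102387135 (1.41 and 2.63 against 3.20 and 2.81 CPM), and that of Hdac6 lay in a coding exon at 7943642 (0.84 and 3.10 against 2.89 and 2.59 CPM). Reads also favoured 1 strand of a CpG: of 162 member CpGs with at least 20 reads in all, 115 had at least 90% on 1 strand, which is 71.0% against 72.4% of all such CpGs.

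**Figure D3:**
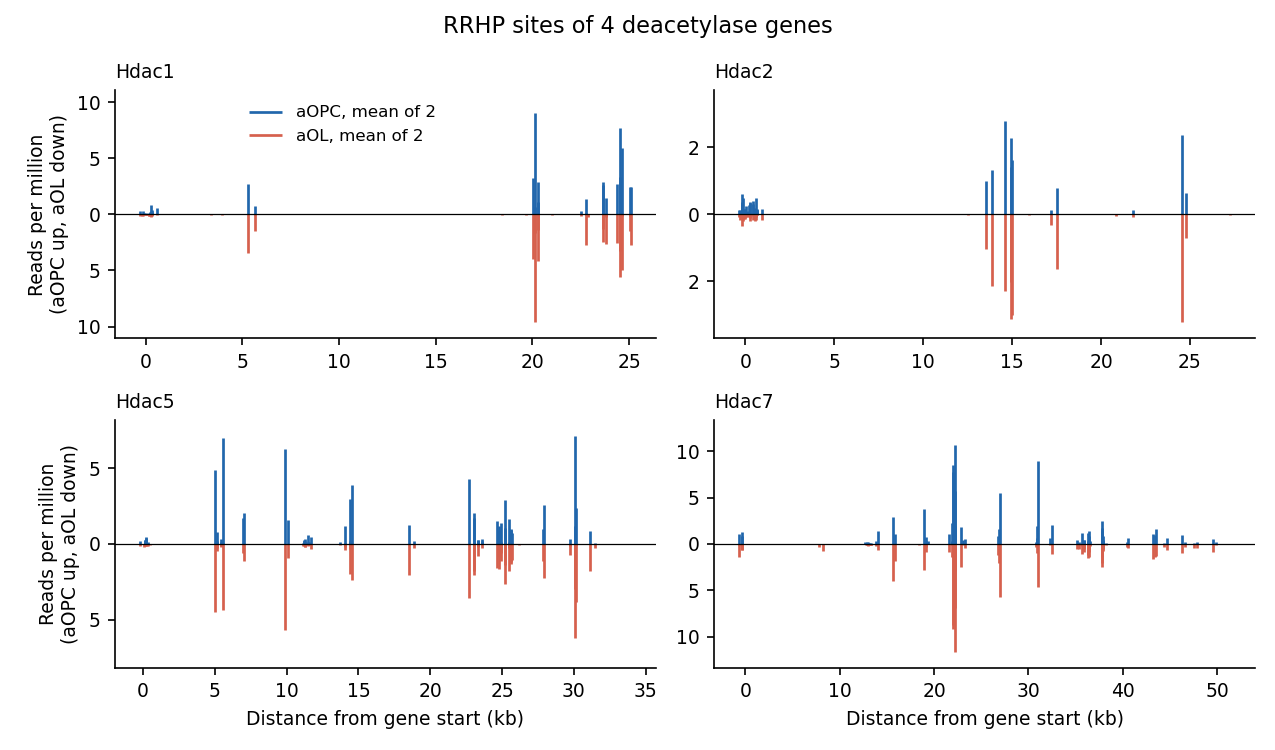
RRHP CPM at each listed site of Hdac1, Hdac2, Hdac5 and Hdac7 against the distance from the gene start in kb, with the mean of 2 aOPC libraries upwards and the mean of 2 aOL libraries downwards. The tallest sites lie inside the genes, and one tall Hdac7 site, 31061 bases after the start, has a mean of 8.90 CPM in aOPC and 4.59 CPM in aOL.

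CpG islands, which include island sites well inside Hdac5 and Hdac7, carried little signal. The 96 member sites in CpG islands had 0.24, 0.08, 0.09 and 0.12 CPM per site in aOPC replicates 2 and 3 and aOL replicates 2 and 3, against 0.79, 0.88, 0.94 and 0.86 CPM for the other 375 sites. Over all genes the corresponding values were 0.32, 0.14, 0.13 and 0.18 CPM at island sites and 0.81, 0.88, 0.90 and 0.86 CPM elsewhere. In both, aOPC replicate 2 was the highest at islands and the lowest elsewhere. The RefSeq promoter table matched 8 of the 10 genes, and that of Hdac2 is shown because it held the most CCGG motifs of the member promoters that adjoin an annotated gene start. The 250 bases before the start are chr10:36974294-36974543, plus strand, GRCm38.p6, and the capitals mark its 5 CCGG motifs. A CCGG, which reads the same on both strands, occurs in the 250 bases before 47.1% of the 32851 promoters of the table.
Hdac2 promoter: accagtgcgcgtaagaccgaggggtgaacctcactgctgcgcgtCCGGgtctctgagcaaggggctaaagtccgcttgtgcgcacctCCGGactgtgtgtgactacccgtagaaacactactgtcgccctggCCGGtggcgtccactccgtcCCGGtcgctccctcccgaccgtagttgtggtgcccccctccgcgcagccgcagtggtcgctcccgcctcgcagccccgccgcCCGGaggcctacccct

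Those 250 bases held 8 listed sites, with 26 and 13 reads in aOPC against 11 and 44 in aOL. The Hdac2 gene body held 115 to 570 reads per library over 36 sites, of which 20 are also in the promoter column. Summed over promoter sites, 6 of the 10 genes could be tested, and edgeR and DESeq2 called none of them (background in edgeR 0.768% of 14579 promoters). Hdac2 had 9.56 and 2.63 CPM in aOPC against 2.26 and 3.88 in aOL, and Hdac1 had 6.19 and 1.58 against 1.19 and 2.37, with aOPC replicate 2 far above the rest in both. The edgeR log2 fold changes were -0.27 ± 0.39 and -0.37 ± 0.41 (SE) with a TMM factor of 1.75 for aOPC replicate 2, and -0.95 and -1.07 with library totals alone. Hdac5, Hdac6 and Hdac7 overlapped likewise (0.18 ± 0.45, 0.55 ± 0.41 and 0.21 ± 0.39, SE), and with library totals alone they turned to -0.44, -0.10 and -0.26. For Hdac8 the log2 fold change was 1.33 ± 0.62 (SE), with an unadjusted p of 0.0420 (background 5.97%) and an edgeR adjusted p of 0.778. It came from 5 and 5 reads in aOPC against 8 and 30 in aOL, of which 26 in aOL replicate 3 fell on 1 untranslated site, so the populations overlapped. Without that library the log2 fold change was 0.81, and with library totals alone 0.83. Hdac3 and Hdac11 were under the filter, with 1 and 19 promoter reads in all, and the promoter column names neither Hdac4 nor Sirt2.

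In RNA, no deacetylase gene passed the test (limma, unadjusted p under 0.01 with adjusted p under 0.05), where 0.0808% of 11133 genes tested were called. The aOL values of 4 of 10 genes lay outside the aOPC values, against 61.8% of all genes: Hdac6 and Hdac11 were higher and Hdac1 and Hdac3 lower. Only Hdac11 had an unadjusted p under 0.05 (background 24.0%). The median difference, aOL minus aOPC, was 0.04 log2 units over the 10 genes and 0.02 over all genes tested. In each of the 10 genes the aOPC libraries differed more than the aOL libraries, with a median SD of 0.35 against 0.06, and over all genes tested it was 0.34 against 0.08.

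Class I genes were expressed at moderate levels. Hdac1 had log2 values of 12.15 and 12.03 in aOPC against 11.75 and 11.79 in aOL, a difference of -0.32 ± 0.19 (SE; limma adjusted p = 0.357). Hdac3 was at 12.43 and 11.92 in aOPC against 11.42 and 11.63 in aOL, a difference of -0.65 ± 0.26 (SE; limma adjusted p = 0.235). For both genes the aOL libraries were lower without overlap. Hdac2, the partner of Hdac1, was at 11.73 and 11.49 against 11.66 and 11.64 (0.04 ± 0.20, SE), and Hdac8 at 9.70 and 9.98 against 9.88 and 9.91 (0.05 ± 0.21, SE). The populations overlapped in both.

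The differences of class IIa genes depended on which aOPC library was kept. Hdac5, which with Hdac4 and Hdac7 forms the MEF2-binding class, had values of 13.82 and 12.63 in aOPC against 13.69 and 13.77 in aOL, so that aOPC replicate 3 alone was low. Hdac7 had 11.59 and 9.93 against 10.18 and 10.56, and Hdac4 had 10.17 and 10.99 against 10.48 and 10.20. The differences were 0.51 ± 0.45, -0.39 ± 0.62 and -0.24 ± 0.35 (SE), with limma adjusted p-values of 0.523, 0.711 and 0.696. Without aOPC replicate 2, Hdac5 passed the test with a difference of 1.10 (limma adjusted p = 0.0183), a setting in which 34.2% of all genes were called and the 1 aOPC library left is assumed to vary like the aOL libraries, and without aOPC replicate 3 its difference was -0.09. Hdac7 was at 0.44 without aOPC replicate 2 and at -1.22 without aOPC replicate 3, and Hdac4 was at -0.65 and 0.18 in the same order.

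Hdac6 and Hdac11 were higher in both aOL libraries. Hdac6 had 10.10 and 9.61 in aOPC against 10.58 and 10.44 in aOL, a difference of 0.66 ± 0.26 (SE; limma adjusted p = 0.222). It passed without aOPC replicate 2 (0.91, limma adjusted p = 0.0233), under the same assumption and where 34.2% of all genes did. Hdac6 is X-linked, and aOPC replicate 2 was the library with Y-linked transcripts. Any part of sex in the Hdac6 values was not tested. Hdac11, an enzyme known to remove fatty acyl groups from lysine, had 14.12 and 14.01 in aOPC against 14.57 and 14.61 in aOL. The difference of 0.53 ± 0.19 (SE) had an unadjusted p of 0.0471 and a limma adjusted p of 0.203, and it stayed between 0.47 and 0.58 when any 1 library was left out.

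Sirt2 had log2 values of 15.57 and 14.42 in aOPC against 15.02 and 15.12 in aOL. Both aOL values fell between the aOPC values, and the difference was 0.08 ± 0.44 (SE; limma adjusted p = 0.922), or -0.49 and 0.65 without aOPC replicate 3 and 2. The genes whose centred values over the 4 libraries lay nearest to Sirt2 were Rbm5, Uimc1 and Mks1, at Euclidean distances of 0.045, 0.056 and 0.058 log2 units, against a median of 1.11 over 11314 genes. Each was high in aOPC replicate 2 and low in aOPC replicate 3, and 66 genes lay within a distance of 0.2.

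**Figure D4:**
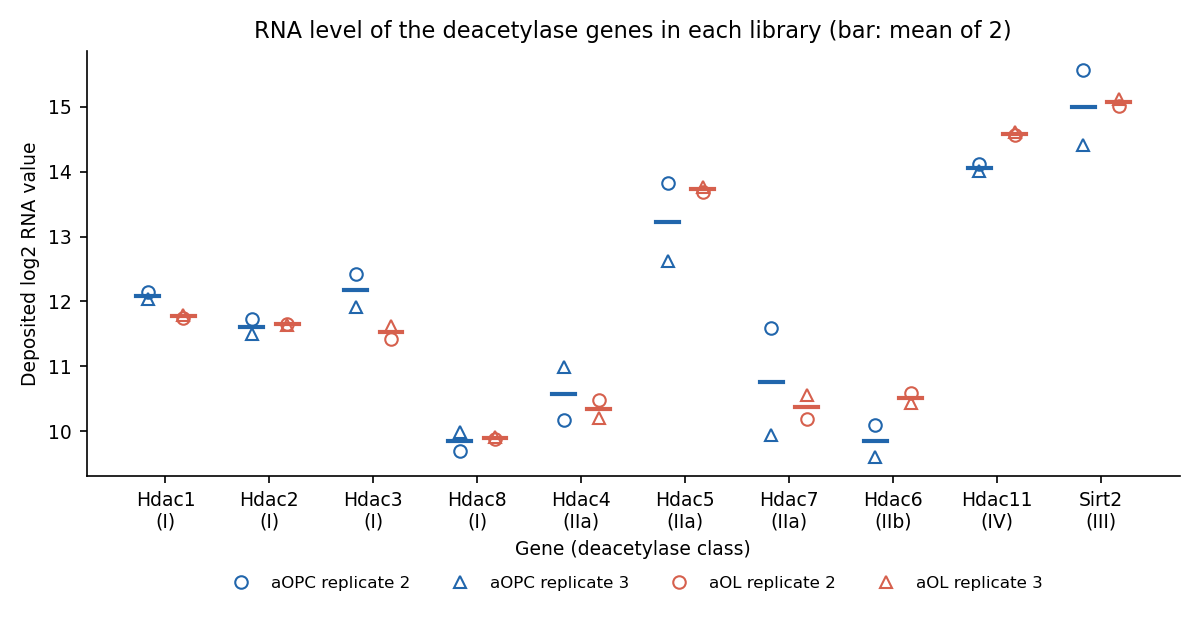
Deposited log2 RNA value (vertical axis, not starting at 0) of each deacetylase gene in each library, by gene and class, with circles for replicate 2, triangles for replicate 3, blue for aOPC, red for aOL and a bar for the mean of 2. The aOL libraries lie close together, and the aOPC libraries are wide apart for Hdac5, Hdac7 and Sirt2.

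Levels between genes were set side by side per length, as the log2 value minus the log2 of the exonic length in kb (union of GENCODE exons). Sirt2 was highest with a mean of 12.70 over the 4 libraries (12.09 to 13.23), followed by Hdac11 with 12.38 (12.06 to 12.66), and their ranges overlapped. A gap of 2.04 log2 units separated them from Hdac5 (10.34), Hdac1 (10.15), Hdac3 (9.83) and Hdac2 (9.47), of which neighbours overlapped. Hdac7 (7.81), Hdac6 (7.64) and Hdac8 (7.59) formed the next tier, 1.66 log2 units lower, again with overlapping ranges. Hdac4 was lowest with 6.48 (6.18 to 7.01). The order per length differed from that of the RRHP signal. Hdac11, second in RNA, had the lowest mean RRHP density of the 10, but its range overlapped that of Hdac3 (0.01 to 0.07 against 0.05 to 0.09). Hdac1, below Hdac5 in RNA, had the highest.

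Side by side, the RNA and gene-body differences of the 9 genes with both took different signs in some genes. Hdac4 had a gene-body value of 0.41 over the sites named for it (a ratio of only 1.08 over its span) and an RNA difference of -0.24. Hdac6 was above 0 in both (0.25 in RRHP and 0.66 in RNA), whereas Hdac5 was at -0.10 in RRHP and 0.51 in RNA. Hdac1 and Hdac3, lower in aOL RNA, had gene-body values of 0.00 and 0.10. None of these values passed its test, and RNA and DNA came from the same pellets.

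**Figure D5:**
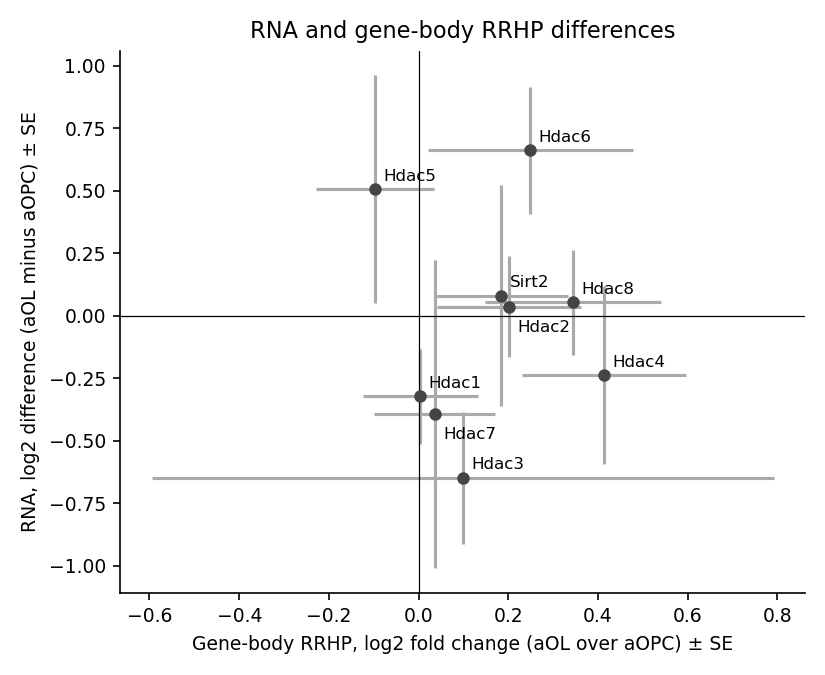
RNA difference (aOL minus aOPC, log2 units, vertical axis) against the gene-body RRHP log2 fold change (aOL over aOPC, horizontal axis) for the 9 deacetylase genes tested in both, with bars for the SE of each. For every gene but Hdac6 a bar reaches 0 on at least 1 axis, and Hdac6 and Hdac3 mark the upper and lower RNA extremes.

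The genes that work with these enzymes were examined as lists, and none of their members was called in RNA. Counts without overlap are to be read against the 61.8% of all genes tested whose populations did not overlap. Of 8 other deacetylases (Hdac9, Hdac10 and the remaining sirtuins), 1 was higher and 2 were lower in aOL without overlap, a share below that of all genes. Sirt3, a mitochondrial deacetylase, was at 10.87 and 11.12 in aOPC against 10.24 and 10.36 in aOL (-0.69 ± 0.21 SE, limma adjusted p = 0.175), and Sirt1, a nuclear one, was at 9.43 and 10.15 against 10.29 and 10.23 (0.47 ± 0.31 SE, limma adjusted p = 0.401). Of 29 corepressor subunits, 10 were higher and 8 lower without overlap, near the share of all genes, and the list had a median difference of -0.05. The methyl-CpG binding NuRD subunit Mbd2 was at 10.08 and 9.68 against 10.75 and 10.86 (0.92 ± 0.23 SE, limma adjusted p = 0.154), and its companion Mta1 at 8.06 and 8.44 against 9.08 and 9.05 (0.82 ± 0.23 SE, limma adjusted p = 0.164). Of 11 acetyltransferases, which oppose the deacetylases, 3 were higher and 4 lower (median 0.14). Ep300 was at 11.62 and 10.26 against 11.76 and 11.74, and the amino-terminal acetyltransferase Naa10 at 10.34 and 10.86 against 9.87 and 9.92.

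Of 10 class IIa partners, 5 were higher and 1 lower without overlap, near the 61.8% of all genes (median 0.08). The transcription factor Mef2b, low in all libraries, was at 3.81 and 4.88 in aOPC against 7.05 and 6.88 in aOL. It passed the filter, a log2 value of 5 in 2 libraries, only through aOL, so its difference is given as a value (2.62). Mef2c was at 5.48 and 4.76 against 5.60 and 5.90. Among 5 genes of tubulin acetylation, the substrate mark of Hdac6 and Sirt2, 2 were lower and none higher (median -0.30, background 61.8% without overlap). Atat1, the tubulin acetyltransferase, was at 12.93 and 12.77 in aOPC against 11.86 and 11.84 in aOL, a difference of -1.002 ± 0.19 (SE; limma adjusted p = 0.133). Tuba1a was at 13.89 and 14.68 against 13.67 and 13.57, a value that is less certain because tubulin paralogs share sequence.

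Of the genes known to be repressed through Hdac1 and Hdac2 during differentiation, 7 of 8 were listed. In 6 of 7 both aOL libraries were lower than both aOPC libraries and in none higher (61.8% of all genes did not overlap), with a median difference of -1.08 against 0.02 for all genes tested. In 4 the unadjusted p was under 0.05 (24.0% of all genes), and none passed the test. The smallest fall of the 6 was that of Tcf7l2, at 10.94 and 10.88 in aOPC against 10.72 and 10.70 in aOL (-0.20 ± 0.19 SE). Nkx6-2 overlapped, at 15.12 and 14.53 against 14.42 and 14.65. Markers of OPC, astrocytes, microglia and neurons also had medians below 0 (-0.67, -0.68, -0.57 and -0.46), some of these genes are also expressed in astrocytes and progenitors, and the part of those cells in the values was not tested. Id2, an inhibitor of basic helix-loop-helix factors, was at 9.99 and 9.26 in aOPC against 6.85 and 7.24 in aOL (-2.58 ± 0.34 SE, limma adjusted p = 0.112). The progenitor factor Sox11 was at 8.85 and 6.96 against 5.66 and 4.46 (-2.85 ± 0.80 SE, limma adjusted p = 0.165), and the Notch target Hes1 at 5.83 and 6.79 against 0.32 and 5.75, so that aOL replicate 2 set its difference of -3.28 ± 1.92 (SE; limma adjusted p = 0.357).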

How the data were processed

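Per the study's methods and the labels, the authors aligned RNA reads to mm10 with BWA and counted uniquely aligned exon reads, and they name DESeq2 for the normalization. The deposited RNA values are log2 values with nearly equal quantiles in the 4 libraries (median 10.57 in each); the step that brought them to one distribution is not given in the sources used here. A difference shared by most genes is thereby removed, the values hold no read counts, and RNA depth is unknown. The design named log2 values, so limma 3.58.1 was used on genes that reached a log2 value of 5 in 2 or more libraries.

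The deposited RRHP values are raw read counts per CpG and strand in mm10, with promoter, exon, intron and CpG island columns from the authors. The aligner, duplicate handling and site filter are not given in the sources used here. A site absent from the list of a replicate number was set to 0. All 471 member sites lay at a CCGG of GRCm38, and positions are 1-based. The edgeR 4.0.16 quasi-likelihood test, with TMM factors on library totals, was run on gene bodies (exon and intron sites) and promoters after filterByExpr, and on single sites that reached 10 reads in 2 or more libraries. P-values were adjusted over all features by Benjamini-Hochberg. CPM are counts scaled to a library total of 1000000. Fits were checked on simulated data. Gene spans and exons came from GENCODE M21, promoters from RefSeq (GRCm38.p6). R 4.3.3, Python 3.11.15, scipy 1.17.1, pandas 2.3.3 and matplotlib 3.10.9 were used, with DESeq2 1.42.0 as an alternative.

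Members, lists and tests were chosen with earlier results of these data known. All 10 members were named, and of each related list the 2 genes with the largest absolute RNA difference and no overlap, and of each member the called sites and the most-read site. Id2, Tcf7l2, Nkx6-2, the marker genes and the uncalled sites of Hdac4 and Hdac7 that are described were added after their values were seen. The alternatives covered filters, scaling, tools, the replicate block, strand sums and leaving out each library. A first replicate was not analysed here.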

Additional observations from a re-analysis of the deposited data

Results flagged for a closer look

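Some reads inside the annotated spans of these genes lay outside the gene-body, promoter and single-site comparisons of these genes. They entered only the values over the span, which are the CPM per CCGG and the span CPM given for Hdac4. In the Hdac4 span, 49 listed sites carried no gene name in any column, although they lay between 91928854 and 92181074 on chromosome 1. They held 2178 reads over the 4 RRHP libraries, with 298 and 542 in aOPC and 445 and 893 in aOL (41.9 and 31.7 CPM against 27.9 and 33.0 CPM). Of these sites 9 had enough reads for the single-site test, and none was called. This signal is listed because it exceeds the 3 counts that a count of 0 allows. In the Sirt2 span, 6 listed sites were given to other genes only, 2 to the promoter of Nfkbib and 4 to Gm19897. They held 133 reads over the 4 libraries, with 8 and 35 in aOPC and 25 and 65 in aOL, and 1 of them had enough reads for the test and was not called.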

How the results depend on the processing

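The number of deacetylase genes called in RNA was 0 in every alternative but 1, and ranged from 0 to 2 when 1 library was left out, with Hdac5 and Hdac6 called without aOPC replicate 2, where 34.2% of all genes were called. For gene bodies the range was 0 to 1, with Hdac4 called without aOPC replicate 3. No promoter was called in any setting. The number of member sites called singly was 4 in the main fit, and in other settings the sites need not be these 4. It was 2 under a minimum of 20 reads in 2 libraries and 0 under one of 10 reads in every library. With strands summed it was 3, and 0 to 4 with 1 library left out. The 0 came without aOPC replicate 3, which removes most of the aOPC reads. The remaining alternatives gave 4 or 5 member sites. With the replicate number as a block, calls were 0 in RNA, 0 in gene bodies, 0 in promoters and 5 at single sites, and over all RNA genes they went from 9 to 127. Over all genes, RNA calls were 0 with no filter or with log2 values of at least 5 in all libraries, 23 with trend and robust priors and 65 at an adjusted p under 0.10. Gene-body calls over all genes were 157 and became 253 without island sites, 10 where each site had 3 reads in every library and 1 without the singly called sites (chosen after seeing the data). Promoter calls were 112 and became 436 with the wider window, 219 with no filter, 59 with DESeq2 and 38 with at least 3 reads, and site calls were 10154 and became 5136 and 490 with the stricter minimums. Same-numbered libraries share only a number: their deviations correlated at -0.07 in RNA and -0.41 in gene bodies.

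Some values that passed no test with all libraries changed sign. In RNA, with 1 library left out, Hdac2 ran from -0.083 to 0.15, Hdac4 from -0.65 to 0.18, Hdac5 from -0.091 to 1.10, Hdac7 from -1.22 to 0.44, Hdac8 from -0.091 to 0.20 and Sirt2 from -0.49 to 0.65. In gene bodies, Hdac1 ran from -0.077 to 0.10, Hdac3 from -0.55 to 0.62, Hdac5 from -0.21 to 0.024 and Hdac7 from -0.085 to 0.19. Without CpG island sites Hdac1 was at -0.028 and Hdac7 at -0.019 (chosen after seeing the data), and where each site had 3 reads in every library Hdac3 was at -0.46 and Hdac7 at -0.019. In promoters, Hdac1 ran from -0.76 to 0.13, Hdac2 from -0.56 to 0.17, Hdac5 from -0.033 to 0.44 and Hdac7 from -0.045 to 0.55. With library totals alone Hdac5 was at -0.44, Hdac6 at -0.10 and Hdac7 at -0.26. Hdac5 was at -0.047 with the window from 2 kb before to 500 bases after the start, and Hdac7 at -0.072 with at least 3 reads. Some other values kept their sign but moved with 1 library left out. In gene bodies, Hdac2 ran from 0.061 to 0.41, Hdac6 from 0.0305 to 0.61 and Hdac8 from 0.20 to 0.57. In RNA, Hdac3 ran from -0.90 to -0.39 and Hdac6 from 0.42 to 0.91. The cause was not tested. No site of Hdac3 or Hdac11 had enough reads for a test.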
